A study of Mus musculus with 40 samples.

Results

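The set described here is 8 enzymes of glycolysis and 2 annotated copies of Gapdh: Hk1, Gpi1, Pfkm, Aldoa, Tpi1, Gapdh with Gm7336 and Gm12671, Eno1 and Pkm. The rows of the deposited table were chosen by matching their Ensembl gene IDs to these 10 symbols. This gave 11 of 54331 rows, because Aldoa has 2 IDs, and all 11 passed the filter on low values (at least 10 in at least 4 libraries). Total RNA without ribosomal RNA was sequenced from male C57BL6 cerebellum. The labels name the genotypes WT, INDY, CSB and DKO, each fed either SD, the standard diet, or KD, the ketogenic one. INDY is a name of Slc13a5, a citrate transporter of the plasma membrane, and CSB is the protein of Ercc6, which acts in DNA repair coupled to transcription. On SD there were 4 WT, 6 INDY, 6 CSB and 4 DKO libraries, and on KD 4 WT, 6 INDY, 5 CSB and 5 DKO libraries, 40 in all. The alleles, the ages, the length of the feeding and whether each library is 1 animal are not stated in the labels, so the p-values below measure the spread between libraries. Libraries are named by group and by the number in their title. A value is the authors' normalised estimated read count of a gene in a library.

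Glycolysis splits glucose into pyruvate in the cytosol and yields ATP and NADH. Hexokinase, phosphofructokinase and pyruvate kinase catalyse its irreversible steps, and the other enzymes work close to equilibrium. Neurons and glia of the cerebellum draw most of their energy from glucose on a standard diet, while a ketogenic diet supplies ketone bodies that enter metabolism below glycolysis. Gapdh oxidises glyceraldehyde 3-phosphate and is widely used as a reference gene in RNA measurements. It has many processed pseudogenes, which are copies of its spliced RNA inserted elsewhere in the genome.

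The copies matter for the Gapdh value, because a read from a shared stretch cannot be placed. Gapdh lies on the minus strand of chromosome 6 (GRCm38, 125161715 to 125166467) and has 7 exons in the transcript compared. Gm12671 (chromosome 4, 91851668 to 91852669, minus strand) and Gm7336 (chromosome 7, 51746647 to 51747878, plus strand) are annotated as processed pseudogenes. Both match all 1002 bases of the Gapdh coding sequence, and Gm7336 also covers most of the untranslated ends. A further copy outside the chosen symbols, Gm13394 (chromosome 2, 28933610 to 28934609, minus strand), was added after its values were seen. It is 1000 bases long and matches 999 of them, with A346C as the only substitution, where positions count from the A of the Gapdh start codon. Gapdh position 346 lies in exon 4, at base 125163016 of chromosome 6. The 120 coding bases from position 286 to 405 are shown for the 4 genes, with the base at position 346 in capitals, because it is the only aligned base at which these 4 coding sequences differ.
Gapdh: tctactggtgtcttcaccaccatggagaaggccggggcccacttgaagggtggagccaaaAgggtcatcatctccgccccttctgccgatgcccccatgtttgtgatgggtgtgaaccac
Gm12671: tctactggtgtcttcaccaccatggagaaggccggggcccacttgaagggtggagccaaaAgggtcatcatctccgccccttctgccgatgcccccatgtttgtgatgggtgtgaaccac
Gm7336: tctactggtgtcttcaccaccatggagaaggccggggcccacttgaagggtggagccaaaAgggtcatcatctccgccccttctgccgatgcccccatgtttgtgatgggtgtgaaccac
Gm13394: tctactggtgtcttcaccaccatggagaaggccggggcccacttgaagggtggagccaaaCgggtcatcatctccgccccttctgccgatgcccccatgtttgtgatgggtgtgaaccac

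Depth is unknown, since the values are normalised. Slc13a5 lay between 82.1 and 161 wherever the label was WT or CSB (19 libraries), and no higher than 0.934 where it was INDY or DKO (21 libraries). Ercc6 lay between 718 and 1070 in 19 of 20 libraries labelled WT or INDY, and between 382.5 and 876.2 in the 20 labelled CSB or DKO, ranges that overlap. The library labelled WT KD 25 read 633 for Ercc6, and it read 1041 for Gm6768, which is listed at 0 in the other 19 WT and INDY libraries and reads 929 or more in CSB and DKO, so the main values on WT KD are also given without it. Of the markers of the tissue, 9 of 10 granule cell genes and 10 of 10 Purkinje cell genes reached 10 in all 40 libraries. DKO SD 1 stood apart, with the highest mean log2 level of 18 forebrain markers (9.82) and the lowest of the granule cell (6.86) and Purkinje cell (9.32) markers. The main values on DKO SD are also given without it.

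Compared per 1000 bases of the longest transcript, Gapdh and Aldoa stood highest and Hk1 lowest. Hk1, the hexokinase that traps glucose as its phosphate, averaged 1149 ± 101 (SD, n = 40) per 1000 bases. Gpi1, which converts that phosphate to fructose 6-phosphate, averaged 2999 ± 329, and Pfkm, the muscle-type subunit of phosphofructokinase, 2504 ± 196. Below the split of the sugar the levels were higher: Aldoa, the aldolase, averaged 15286 ± 2086 and Tpi1, which interconverts the triose phosphates, 5155 ± 794. Gapdh averaged 15418 ± 2821 without its copies, Eno1, an enolase, 4884 ± 639 and Pkm, the pyruvate kinase of brain and muscle, 10286 ± 1093. With the length of all exons joined, Aldoa (8134) came before Gapdh (5297), and Pfkm (2158) moved above Eno1 (1841) and Gpi1 (1341). Aldoa and Gapdh differed by less than the spread between libraries under transcript length.

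For several steps the set holds only part of the level. Hk1 made up 80.8% of the summed hexokinase level per 1000 bases, and Pkm 99.98% of that of the pyruvate kinases, with Pklr of liver and red cells near 0. Pfkm made up 56.7% of phosphofructokinase, beside Pfkp with 1406 ± 129. Aldoa made up 57.2% of aldolase, beside Aldoc, the aldolase of astrocytes and Purkinje cells, with 11428 ± 1713. With joined exons their order turned, with Aldoc at 9757 and Aldoa at 8134. Eno1 (49%) was on a par with Eno2, the neuronal enolase, which averaged 4994 ± 570. Pgk1 (4878 ± 691) and Pgam1 (3995 ± 400), which carry out the steps between Gapdh and enolase, stood close to Eno1. With joined exons Eno1 (1841) lay below Eno2 (2967), Pgk1 (3967) and Pgam1 (3578). For the fate of pyruvate, Ldhb, the heart-type subunit of lactate dehydrogenase, averaged 7323 ± 954 and Ldha, the muscle-type subunit, 976 ± 230.5.

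**Figure D1:**
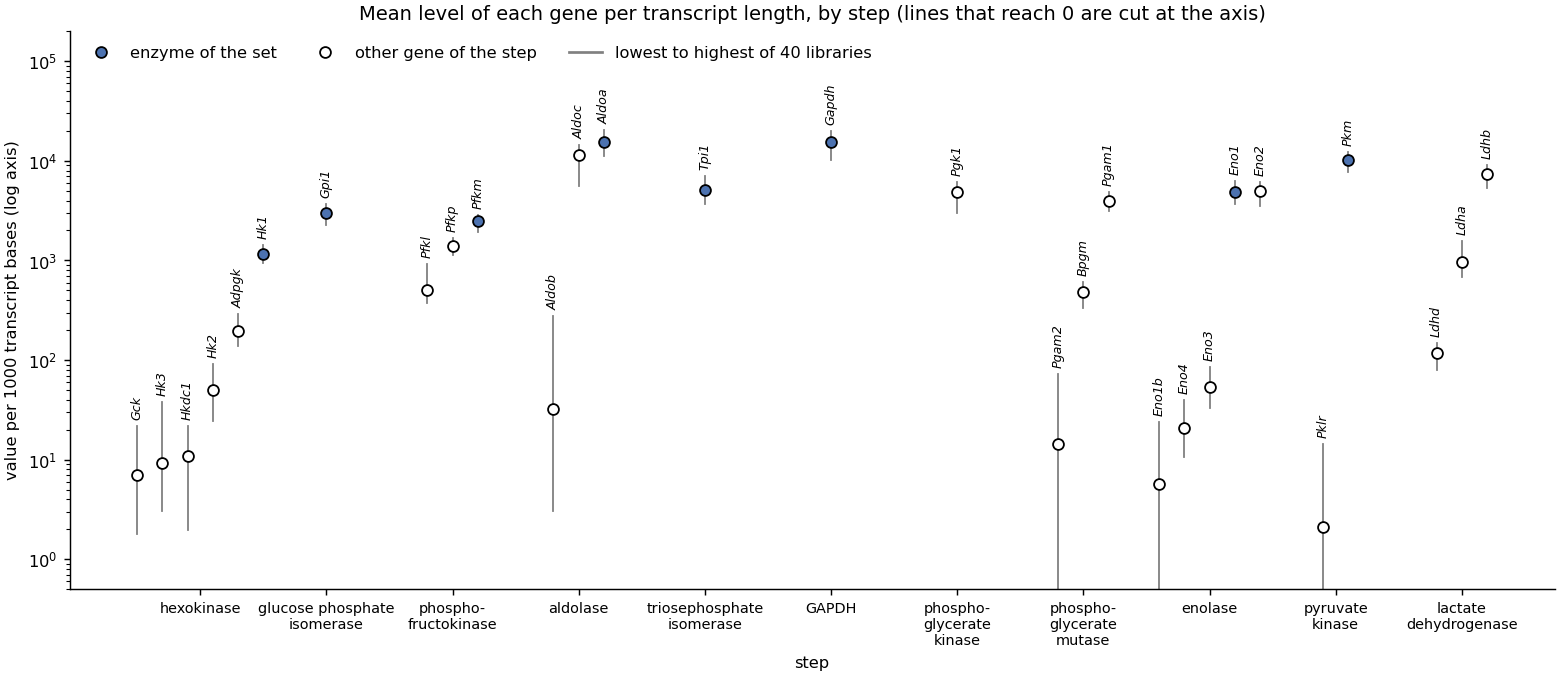
Mean value per 1000 bases of the longest transcript for the genes of each step of glycolysis and for lactate dehydrogenase, on a log axis. Points are means of 40 libraries and lines run from the lowest to the highest library. Gapdh and Aldoa lead the 8 enzymes of the set, and Hk1 is the lowest of them.

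The 2 copies and Gm13394 took turns between libraries. Gm12671 was listed at 0 in 12 of the 40 libraries and read 4398 to 10468 in the other 28. Gm13394 read 8204 to 17956 in those 12 libraries and 0 to 147 in the other 28. Gm7336 read 1349 to 3301 in the 12 and 0 to 31.9 in the 28. No library lay between these ranges for any of the 3 copies.

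The 12 libraries were not spread evenly over the groups. In CSB KD all 5 libraries listed Gm12671 at 0, and Gm13394 read 13226, 8204, 11919, 8856 and 8824 (libraries 13, 18, 19, 43 and 44). In CSB SD 4 of 6 libraries did so (6, 8, 16 and 31), while Gm12671 read 5464 in CSB SD 26 and 4506 in CSB SD 30. The others were WT KD 7 and the library labelled WT KD 25, 2 of 4, and INDY KD 46, 1 of 6. None of the 4 WT SD, 6 INDY SD, 4 DKO SD or 5 DKO KD libraries was among them. Of the CSB libraries 9 of 11 were among them, and of the DKO libraries 0 of 9. These 12 libraries were picked out by the measured values, so no test was made between them and the rest.

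The share of Gapdh itself moved with this pattern. Of the summed value of Gapdh, Gm7336, Gm12671 and Gm13394, Gapdh held 57.9% to 83.8% in the 28 libraries with Gm12671 and 42.7% to 65.3% in the 12 with Gm13394. Gm12671 held 16.2% to 42.1% in the former, and Gm13394 30% to 50.5% in the latter. The extremes were INDY KD 45, where Gapdh read 14421 and Gm12671 10468, and CSB SD 16, where Gapdh read 15166 and Gm13394 17956. The ranges of Gapdh's share overlap, but those of each copy do not. The other aligned copies apart from Peli2 held 0.771% to 1.82% of the summed value of Gapdh and all its aligned copies. One aligned gene, Peli2, averaged 800 and is a gene of its own that shares a Gapdh-like stretch in 1 processed transcript, and its value cannot be split. Copies of the other enzymes were minor: the copies of Aldoa, Eno1, Gpi1 and Pkm held between 0.00521% and 0.112% of the sum with their gene.

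**Figure D2:**
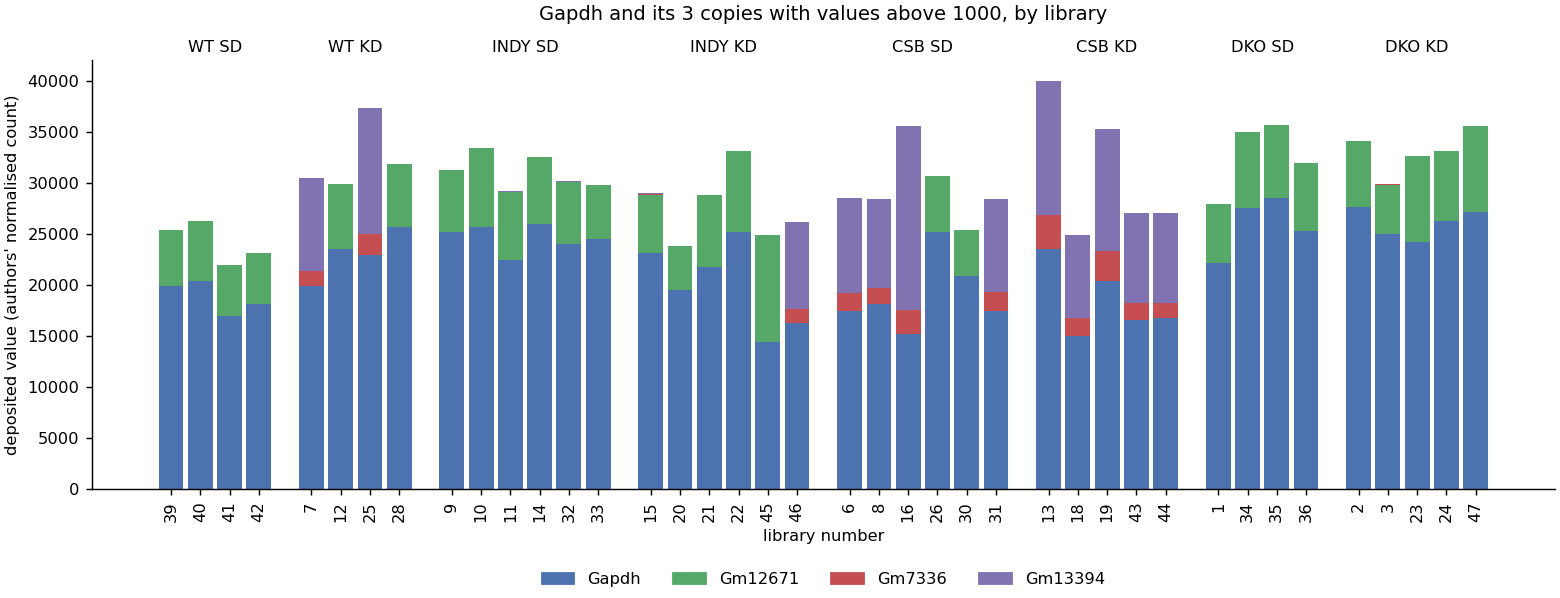
Stacked bars of the deposited values of Gapdh, Gm12671, Gm7336 and Gm13394 in each of the 40 libraries, grouped by genotype and diet. In 12 libraries the green part (Gm12671) is at 0, and a purple part (Gm13394) with a thin red part (Gm7336) stands in its place.

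The 2 ways of summing gave different orders of the groups. With Gm7336 and Gm12671 alone (the 3-row sum), the mean log2(value + 1) was 14.31 ± 0.29 (SD, n = 5) in CSB KD and 14.4 ± 0.31 (n = 6) in CSB SD, below the 14.56 ± 0.12 (n = 4) of WT SD. With Gm13394 added (the 4-row sum), CSB KD stood at 14.89 ± 0.29 and CSB SD at 14.84 ± 0.16, above WT SD at 14.56 ± 0.12. DKO SD (14.99 ± 0.16, n = 4) and DKO KD (15.01 ± 0.09, n = 5) were the highest groups under both. They stood apart under neither sum. In the 3-row sum INDY SD (14.92 ± 0.08, n = 6) lay 0.066 below DKO SD, less than either SD. In the 4-row sum WT KD (14.98 ± 0.15, n = 4) lay 0.0086 below DKO SD, also less than either SD. The SD of log2 values over the 40 libraries was 0.33 for the 3-row sum, 0.28 for Gapdh alone, 0.2 for the 4-row sum and 0.19 with every aligned copy.

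One comparison was called with the 3-row sum alone. INDY and DKO libraries together stood 0.40 above WT and CSB libraries over both diets on the log2 scale (SE 0.072, adjusted p = 0.0187), where 0.014% of all tested genes were called. In the 3-row sum the WT and CSB libraries lack the Gm13394 value, which 11 of their 19 libraries hold. With Gm13394 added the difference was 0.10 (SE 0.053, adjusted p = 0.512), with every aligned copy 0.09 (adjusted p = 0.512) and for Gapdh alone 0.28 (SE 0.064, adjusted p = 0.298). Rescaling to equal totals (0.34, adjusted p = 0.0606), the liver level as a covariate (0.37, adjusted p = 0.0585) and leaving out the 12 libraries with high forebrain levels (0.29, adjusted p = 0.777) also ended the call. Of the 11 rows themselves 0 passed here and 7 had an unadjusted limma p under 0.05, against 9.38% of all genes. Gm12671 differed by 6.48 (SE 1.25, adjusted p = 0.0595) and Gm7336 by -4.55 (SE 0.95, adjusted p = 0.128), values that depend on the added 1 because many libraries are at 0.

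**Figure D3:**
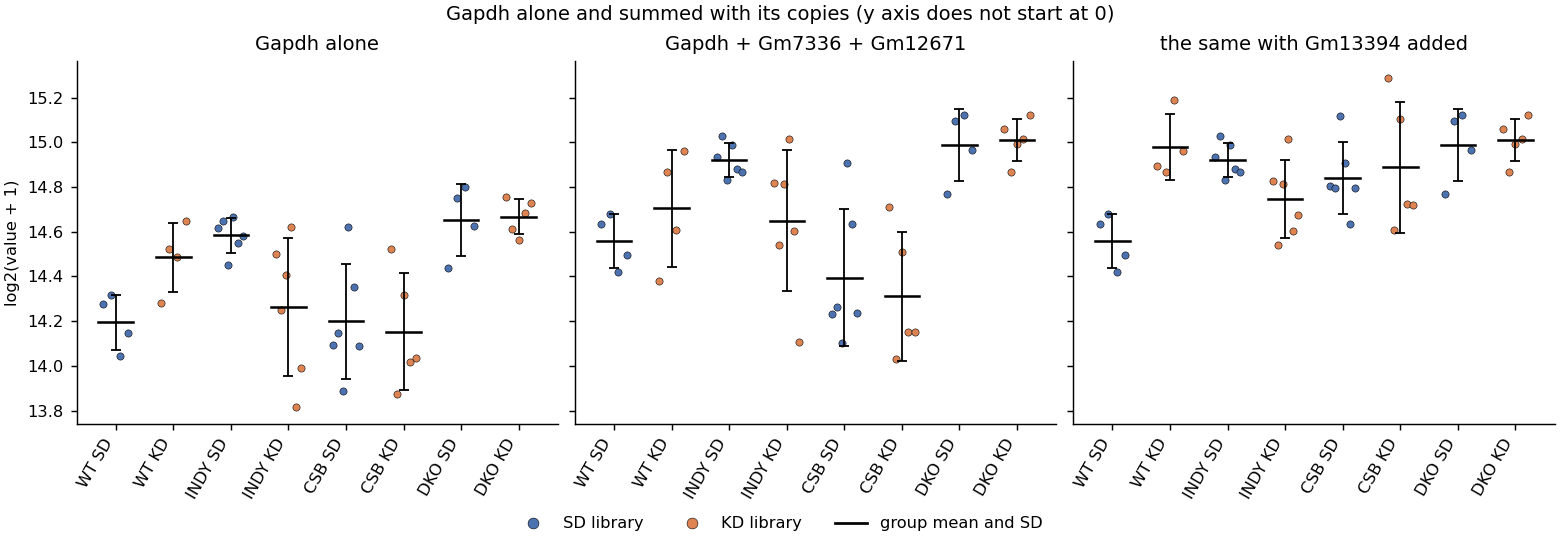
log2(value + 1) of Gapdh alone, of the 3-row sum and of the 4-row sum in each library, by group. Points are libraries, and lines and bars are the mean and SD of a group. The CSB groups lie below WT SD in the 3-row sum and above it in the 4-row sum.

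Over 16 comparisons the only rows called by limma were Aldoa, Eno1 and Gapdh, all higher in DKO than in WT on SD. Aldoa read 21646, 21036, 17179 and 18921 in WT SD 39, 40, 41 and 42, and 25457, 25202, 29292 and 25772 in DKO SD 1, 34, 35 and 36. Every DKO SD library lay above every WT SD library. The log2 difference was 0.43 (SE 0.11, adjusted p = 0.0367 from limma). The second Aldoa ID read only 4.03 to 20.4 over the 40 libraries and was called in none of the 16 comparisons.

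Eno1 read 9235, 8786, 7423 and 7473 in the WT SD libraries and 9423, 10742, 12580 and 10908 in the DKO SD libraries, in the same order. The groups did not overlap, with DKO SD 1 just above WT SD 39. The difference was 0.41 (SE 0.11, adjusted p = 0.0367).

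Gapdh alone read 19844, 20381, 16916 and 18137 in WT SD and 22180, 27586, 28486 and 25253 in DKO SD. DKO SD 1 was again the lowest of its group and above all of WT SD. The difference was 0.46 (SE 0.14, adjusted p = 0.0479). No library of either group holds Gm13394 above 0, so the 3-row and the 4-row sum are equal there, with a difference of 0.43. The SE, which draws on the spread in all 8 groups, was 0.16 for the 3-row sum (adjusted p = 0.0719) and 0.12 for the 4-row sum (adjusted p = 0.0386).

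Tpi1 and Gpi1 lay just outside the threshold. Tpi1 read 7528, 7074, 5990 and 6464 in WT SD and 8067, 8920, 9248 and 9410 in DKO SD, without overlap, a difference of 0.40 (SE 0.14, adjusted p = 0.0609). Gpi1 read 8563, 7613, 6624 and 6505 against 8864, 9135, 10082 and 8157, a difference of 0.31 (SE 0.099, adjusted p = 0.0511). Pkm differed by 0.23 (SE 0.10, adjusted p = 0.125), with DKO SD 1 (21383) inside the WT SD range of 18630 to 24337 and the other 3 libraries at 26867 or more. Hk1 (0.13, adjusted p = 0.301) and Pfkm (0.07, adjusted p = 0.523) had the smallest differences, and Pfkm of DKO SD 1, at 5564, was the lowest of all 40 libraries.

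In this comparison 3 of 11 rows were called, against 5.92% of the 21367 genes tested (3.1% called higher and 2.82% lower), and 4 of 11 rows did not overlap and were higher, against 9.28% of genes. The median difference of the 7 enzymes other than Gapdh was 0.31, against 0.00 over all genes. The calls were close to the threshold. Leaving out DKO SD 1 gave 0.44 for Aldoa (adjusted p = 0.0607), 0.47 for Eno1 (adjusted p = 0.0488) and 0.53 for Gapdh (adjusted p = 0.0643). The others were then 0.45 for Tpi1 (adjusted p = 0.0778), 0.32 for Gpi1 (adjusted p = 0.0795), 0.32 for Pkm (adjusted p = 0.0777), 0.19 for Hk1 (adjusted p = 0.173) and 0.19 for Pfkm (adjusted p = 0.0803). The differences were as large without it, while calls over all genes went from 1265 to 101. Without WT SD 39, 41 or 42 or DKO SD 35 none of the 3 passed, with 0.108%, 0.0562%, 0.304% and 0.206% of all genes called. Without INDY KD 20 or 22, which enter through the spread alone, 5 rows were called, with 12.5% and 11.8% of all genes called. Leaving out each of the 40 libraries in turn ended the call 24 times for Gapdh, 5 times for Aldoa and 4 times for Eno1.

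The size of the difference depended on whether libraries were rescaled to equal totals. Rescaled by the median ratio over tested genes, the median of the 7 enzymes was 0.31, as with the deposited values. The sums of all values were 23736702 to 25324979 in WT SD and 27335713 to 28857051 in DKO SD, and the median of all genes was 0.00 as deposited. When libraries were rescaled to equal totals, the median of all genes became -0.19 and that of the 7 enzymes 0.11. The difference was then 0.23 for Aldoa (adjusted p = 0.0733), 0.21 for Eno1 (adjusted p = 0.0688) and 0.26 for Gapdh (adjusted p = 0.132). Hk1 (-0.07) and Pfkm (-0.12) then lay below 0, as values that did not pass. Of the called genes, 52.3% were higher as deposited and 8.57% after that rescaling.

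Cell type markers also differed in this comparison, where 3.1% of all genes were called higher and 2.82% lower. Of 8 microglia markers 5 were called higher and 8 lay above 0 (median 0.78), with summed values of 4029 to 5262 in WT SD and 7326 to 9141 in DKO SD. All 10 granule cell markers lay below 0 (median -1.3, 0 called), with sums of 45204 to 75872 in WT SD and 3626 to 64015 in DKO SD. Of 18 forebrain markers 2 were called higher and 18 lay above 0, with sums of 2575 to 2987 and 3428 to 35224, and 18 of 18 liver markers lay above 0 with 0 called. Without DKO SD 1 the median was -0.59 for granule cell markers (9 of 10 below 0), 1.13 for forebrain markers (0 called) and 0.73 for microglia markers (3 called). Of all genes 0.474% were then called. None of these lists had a marker at 0 in every library of a group except liver, with 1 of 18 at 0 throughout WT SD. Without DKO SD 1, 14 of 14 choroid plexus markers (median -1.24) and 10 of 10 Purkinje cell markers (median -0.47) lay below 0. Liver markers then had a median of 2.73, with 18 of 18 above 0, and 0 were called in these 3 lists. With the forebrain level as a covariate the differences were 0.30 for Aldoa, 0.34 for Eno1 and 0.42 for Gapdh, and none passed (adjusted p = 0.2, 0.196 and 0.2). The part of these cell types in the enzyme values was not tested further, and in bulk tissue more cells of a type and more RNA per cell cannot be told apart.

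**Figure D4:**
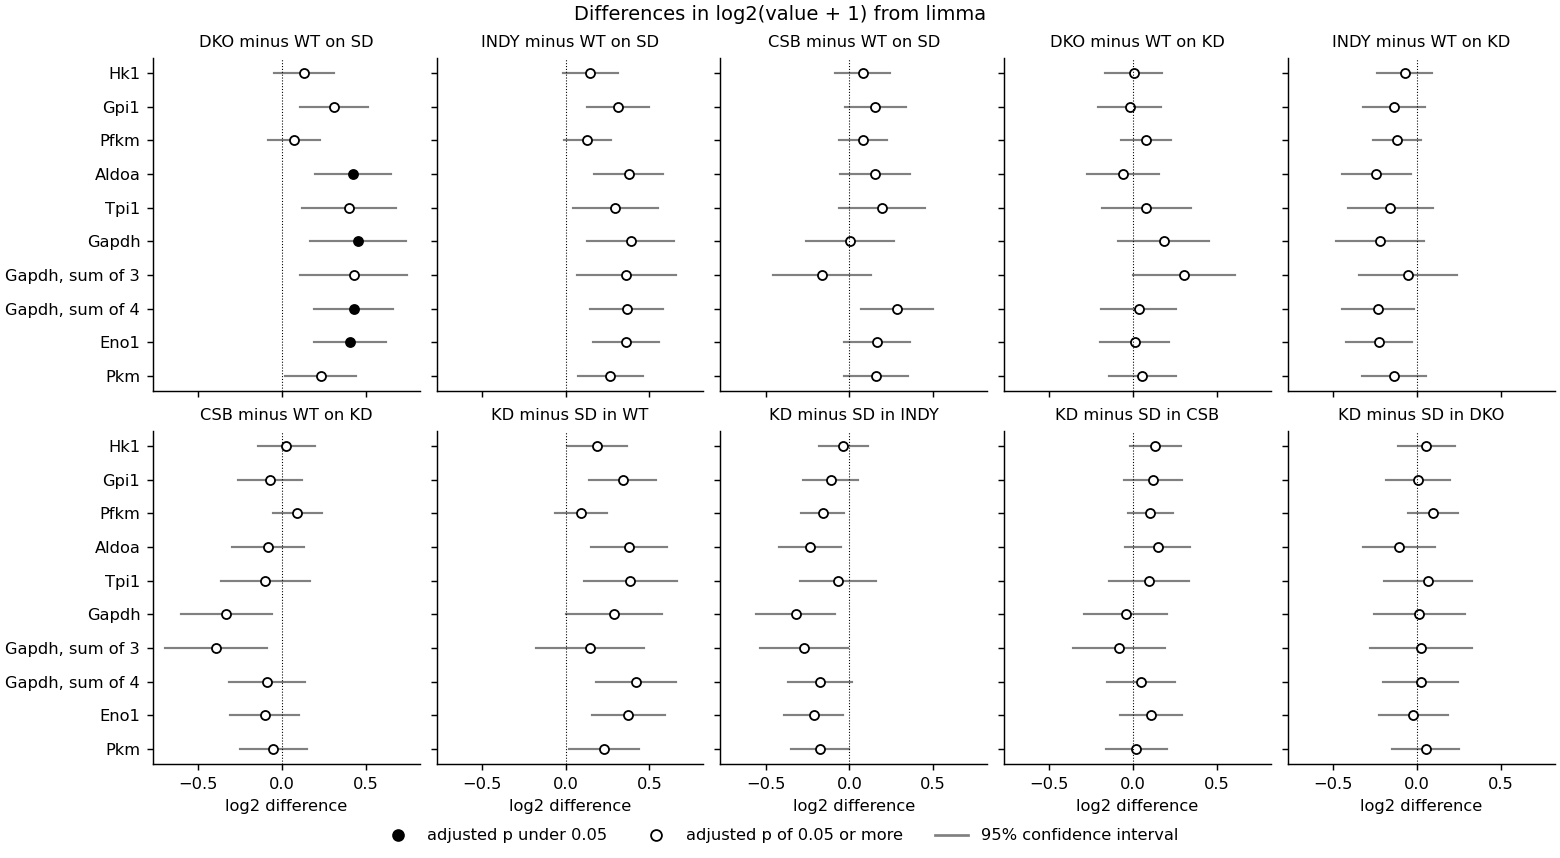
log2 differences of the enzymes and of both Gapdh sums, with 95% confidence intervals, in 10 comparisons. Filled points passed an adjusted p of 0.05. Among these 10 comparisons filled points occur in DKO minus WT on SD alone, and the Gapdh sums separate in the CSB comparisons.

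INDY on SD showed differences of like size with no call. Gapdh read 22399 at the lowest, 24815 at the median and 25967 at the highest in INDY SD, above the highest WT SD library (20381). The difference was 0.39 (SE 0.13, adjusted p = 0.319). Aldoa (0.38, SE 0.10), Eno1 (0.36, SE 0.098) and Pkm (0.27, SE 0.095) also lay above all of WT SD in each of 6 libraries, with an adjusted p of 0.319 each. These are 4 of 11 rows, against 2.74% of genes without overlap in that direction. By limma 0 of 11 rows were called, against 0.00468% of genes, and 6 of 11 had an unadjusted p under 0.05, against 14.3%. All 7 enzymes other than Gapdh lay above 0, with a median of 0.30 against 0.01 over all genes. The comparisons of INDY, CSB and DKO with WT on SD share the 4 WT SD libraries, which had the lowest group mean for Hk1, Gpi1, Aldoa, Tpi1, Eno1 and Pkm.

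CSB on SD stood between these groups. The 7 enzymes lay 0.08 to 0.19 above WT SD, 0 of 11 rows were called against 0.136% of genes, and 2 of 11 had an unadjusted p under 0.05 against 7.88%. Aldoa read 20631 at the lowest, 21633 at the median and 22999 at the highest of 6 CSB SD libraries, which overlapped the 17179 to 21646 of WT SD. Gapdh alone differed by 0.00 (SE 0.13), the 3-row sum by -0.16 (SE 0.14) and the 4-row sum by 0.28 (SE 0.11), none of which passed (adjusted p = 0.996, 0.687 and 0.587). The sign of the Gapdh difference in CSB thus depends on which copies are added.

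On KD the medians of the 7 enzymes lay nearer to WT than on SD. In INDY 7 of 7 enzymes lay below WT KD (median -0.14), in CSB 5 of 7 (median -0.07) and in DKO 2 of 7 (median 0.01). Without the library labelled WT KD 25 these were 7 of 7 in INDY (median -0.10), 5 of 7 in CSB (median -0.01) and 0 of 7 in DKO (median 0.10). The largest of these was Aldoa in INDY at -0.24 (SE 0.10, adjusted p = 0.64), which became -0.16 without the library labelled WT KD 25. Gapdh alone was -0.33 in CSB (SE 0.13, adjusted p = 0.588) and also -0.33 without that library (adjusted p = 0.663), and the 4-row sum -0.09 (SE 0.11, adjusted p = 0.829). By limma 0 of 11 rows were called in each, against 0.00936%, 0.00468% and 0.00936% of genes for INDY, CSB and DKO. Unadjusted p-values under 0.05 numbered 2, 3 and 2 of 11, against 6.59%, 8.23% and 6.39% of genes.

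**Figure D5:**
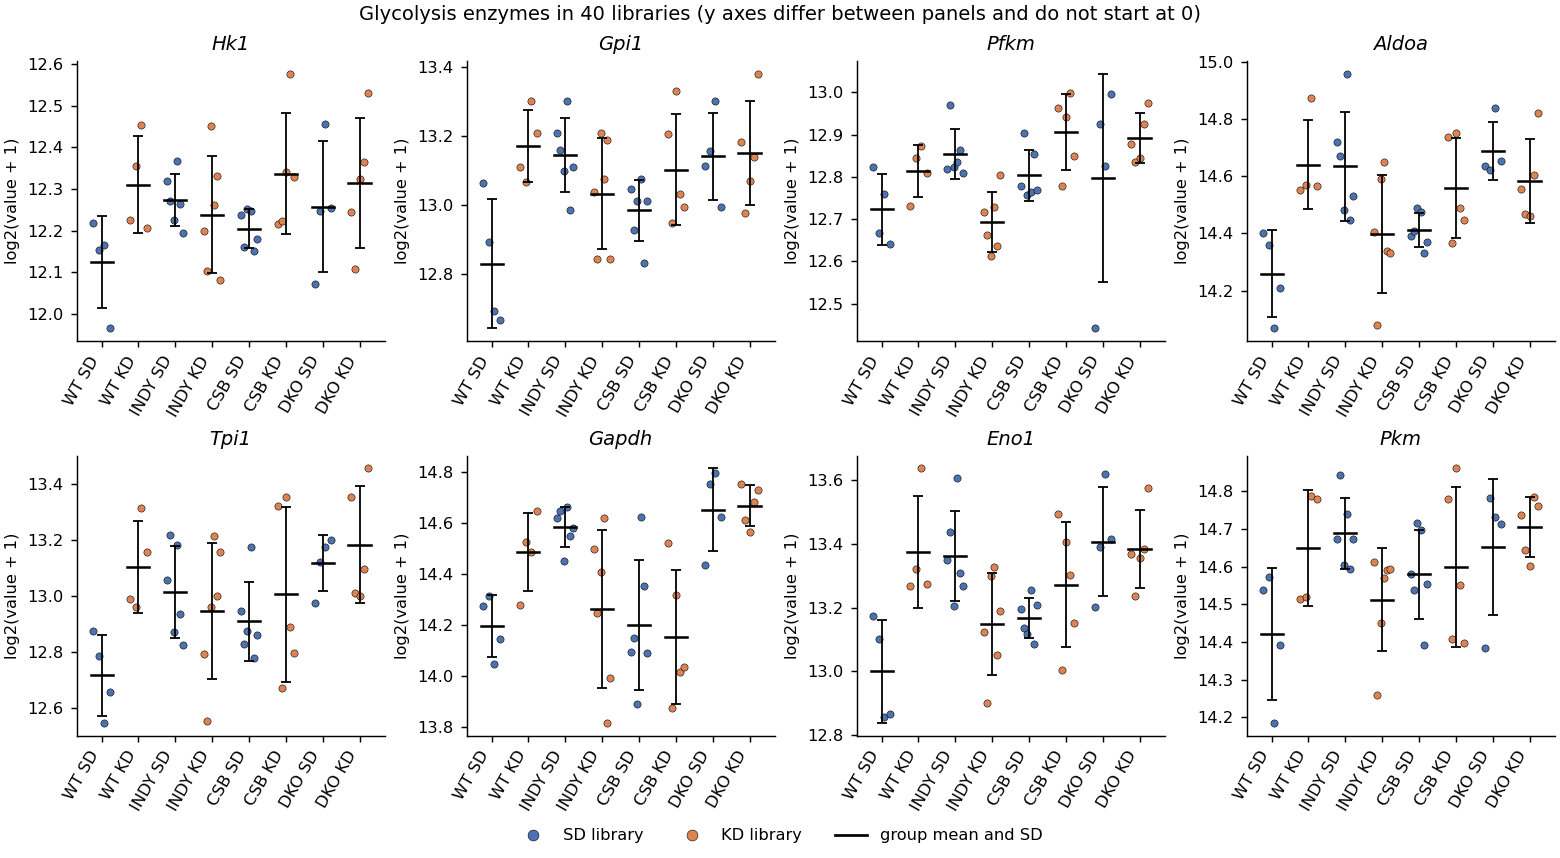
log2(value + 1) of the 8 enzymes in each library, by genotype and diet. Points are libraries, and lines and bars are the mean and SD of a group. WT SD has the lowest mean for 6 of the 8 enzymes, and DKO SD or DKO KD the highest for Gapdh, Aldoa, Eno1, Tpi1 and Pkm.

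In WT several enzymes read higher on KD than on SD, without passing the test. Aldoa read 24021, 24304, 30070 and 24268 in WT KD 7, 12, 25 and 28, all above the WT SD maximum of 21646, a difference of 0.38 (SE 0.11, adjusted p = 0.262). Eno1 read 9865, 10222, 12726 and 9911, above the WT SD maximum of 9235, a difference of 0.37 (SE 0.11, adjusted p = 0.262). Tpi1 (0.39, SE 0.14) and Gpi1 (0.34, SE 0.099) did not overlap either. These are 4 of 11 rows, against 5.13% of genes. Pkm (0.23), Hk1 (0.18) and Pfkm (0.09) overlapped, and so did Gapdh alone (0.29, SE 0.14, adjusted p = 0.368).

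None of these WT differences passed. By limma 0 of 11 rows were called, against 0% of genes, and 9 of 11 had an unadjusted p under 0.05, against 13.4%. The median of the 7 enzymes was 0.34, against -0.01 over all genes. Without the library labelled WT KD 25, Aldoa differed by 0.30, Eno1 by 0.29, Tpi1 by 0.32 and Gpi1 by 0.30 (adjusted p = 0.628, 0.628, 0.652 and 0.624). Pkm then differed by 0.18, Hk1 by 0.14, Pfkm by 0.07 and Gapdh alone by 0.29, and the median of the 7 was 0.29. Rescaled to equal totals the median of all genes was -0.16 and that of the 7 enzymes 0.19, with Pfkm below 0 (-0.06). WT KD libraries had forebrain levels of 6.83, 7.20, 7.54 and 4.81, against 4.69 to 4.95 in WT SD. With that level as a covariate Aldoa differed by 0.27 and Eno1 by 0.32 (adjusted p = 0.503 and 0.431). Without the library labelled WT KD 25, 16 of 18 forebrain markers lay above 0 on KD (median 1.46). So did 7 of 7 skeletal muscle markers (median 2.64), while 14 of 14 choroid plexus markers lay below 0 (median -1.58). Also above 0 were 8 of 8 microglia (median 0.32) and 8 of 8 oligodendrocyte markers (median 0.19). Also below 0 were 10 of 10 granule cell (median -0.33) and 9 of 10 Purkinje cell markers (median -0.48). None of these markers was called, and their part in the enzyme values was not tested.

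In the other genotypes the medians of the 7 enzymes lay nearer 0 than in WT. In INDY 7 of 7 enzymes lay below 0 on KD (median -0.16), and Gapdh alone differed by -0.32 (SE 0.12, adjusted p = 0.981). Pfkm read 6260 at the lowest, 6607 at the median and 7158 at the highest of 6 INDY KD libraries, all below the 7183 to 8023 of INDY SD, a difference of -0.16 (SE 0.063, adjusted p = 0.981). It was the only 1 of 11 rows without overlap, against 0.0889% of genes in that direction. In CSB 7 of 7 lay above 0 (median 0.10) and in DKO 5 of 7 (median 0.05), or 1 of 7 (median -0.02) without DKO SD 1. By limma 0 of 11 rows were called in INDY, CSB or DKO, against 0%, 0% and 0.00468% of genes. Unadjusted p-values under 0.05 numbered 5, 0 and 0 of 11, against 4.63%, 3.43% and 8.11% of genes. Averaged over the 4 genotypes the differences ran from -0.02 (Gapdh alone) to 0.12 (Tpi1), with 0 of 11 rows called against 0% of genes and 3 of 11 unadjusted against 3.16%.

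The diet response of INDY was opposite in sign to that of WT for all 7 enzymes as deposited. Aldoa differed by -0.24 in INDY and 0.38 in WT, and the difference of these responses was -0.62 (SE 0.15, adjusted p = 0.14). For Eno1 it was -0.59 (SE 0.14, adjusted p = 0.14), for Gapdh alone -0.61 (SE 0.18, adjusted p = 0.199) and for Gpi1 -0.45 (SE 0.13, adjusted p = 0.184). By limma 0 of 11 rows passed, against 0.014% of genes, and 7 of 11 had an unadjusted p under 0.05, against 14.3%. Without the library labelled WT KD 25 it was -0.54 for Aldoa, -0.50 for Eno1, -0.61 for Gapdh alone and -0.41 for Gpi1 (adjusted p = 0.247, 0.256, 0.303 and 0.334). For CSB and DKO against WT the medians of the 7 enzymes were -0.22 and -0.32 (-0.16 and -0.25 without that library), with 0 of 11 rows called against 0% and 0% of genes, and 0 and 4 of 11 unadjusted against 6.41% and 18.7%. All 3 of these comparisons share the WT libraries, as does the diet comparison in WT. Rescaled to equal totals, 6 of 7 enzymes lay above 0 on KD in WT and 0 of 7 in INDY. Markers differed too in the response of INDY less that of WT, without the library labelled WT KD 25. Below 0 lay 17 of 18 forebrain (median -1.44) and 7 of 7 skeletal muscle markers (median -3.36). So did 8 of 8 microglia (median -0.39) and 8 of 8 oligodendrocyte markers (median -0.41). Above 0 lay 14 of 14 choroid plexus (median 2.12), 9 of 10 granule cell (median 0.19) and 8 of 10 Purkinje cell markers (median 0.43). None of these markers was called, and their part in the enzyme values was not tested.

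CSB and DKO together lay slightly above WT and INDY over both diets, by 0.04 (Hk1) to 0.11 (Tpi1) for the 7 enzymes. By limma 0 of 11 rows were called, against 0.796% of genes (0.566% higher), and 3 of 11 had an unadjusted p under 0.05, against 18.8%. Pfkm, at 0.08 (SE 0.035, adjusted p = 0.217), passed when DKO SD 1 was left out (0.11, adjusted p = 0.0449). With each library left out in turn, the genes called in this comparison ran from 120 to 1379, against 170 with all libraries.

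The enzyme values varied together across libraries, as a description over 40 libraries that share their normalisation. With the 4-row sum for Gapdh, Pearson's r between 2 enzymes ran from 0.28 (Gpi1 and Pfkm) to 0.93 (Aldoa and Eno1). With group means removed it ran from 0.07 to 0.89, with the same pairs at the ends. Pfkm and Hk1 went least with the rest. The mean of the 8 enzymes had an r of 0.73 with the sum of all values of a library, 0.61 with the mitochondrial percentage and 0.66 with the microglia level, and of -0.17 with the granule cell level. The part of these properties in the enzyme values was not tested.

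The 5 genes whose log2 values were most like the mean of the 8 enzymes, with the 3-row sum, were Ap2s1 (r = 0.90), Rab3a (0.89), Atp6v0d1 (0.89), Atp6v0c (0.88) and Gng3 (0.88), over 40 libraries. Ap2s1 is a subunit of the clathrin adaptor, Rab3a a GTPase of synaptic vesicles, Atp6v0d1 and Atp6v0c subunits of the proton pump of vesicles, and Gng3 a G protein subunit of neurons. The median r over the 14243 candidate genes was 0.09.

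Other genes of the pathway gave few calls in DKO on SD, and most isozymes lay above 0. Of 18 tested other isozymes 1 was called higher, 0 lower and 15 lay above 0 (median 0.32). The called gene was Eno2, which read 12784, 12749, 9846 and 11430 in WT SD and 13378, 16083, 15588 and 14425 in DKO SD, without overlap (0.35, SE 0.11, adjusted p = 0.0482). Over all genes 5.92% were called, and 1 of 18 is near that share. Of 16 genes of pyruvate and lactate use 1 was called, Ldha, which read 1338, 1404, 1378 and 1305 against 2869, 1594, 2374 and 1973. Its highest value was that of DKO SD 1, and the difference was 0.67 (SE 0.20, adjusted p = 0.0469). Without DKO SD 1 neither passed, with 0.40 for Eno2 (adjusted p = 0.0643) and 0.53 for Ldha (adjusted p = 0.114). No gene of glucose and monocarboxylate transport (8 tested), control of glycolytic flux (9), the pentose phosphate and glycerol branches (10), gluconeogenesis (6) or hypoxia (10) was called, and their medians ran from -0.11 to 0.15. Slc2a1, the glucose transporter of the blood-brain barrier, differed by 0.08 (adjusted p = 0.675), Slc2a3, that of neurons, by 0.15 (adjusted p = 0.278), and Hif1a, the oxygen-regulated factor that drives many glycolysis genes, by -0.30 (adjusted p = 0.148).

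As a reference gene, Gapdh alone varied more than several others, which depends on the copies added. Its values ranged 1.98-fold from the lowest to the highest library, with an SD of 0.28 on the log2 scale, a larger SD than that of 81.5% of the 4781 genes with a mean above 10 on that scale. Sdha had an SD of 0.095, Actb 0.16 and Pgk1, the next enzyme of glycolysis, 0.22, while B2m had 0.33. The 4-row sum had an SD of 0.2, above 60.3% of those genes and below Pgk1. Of 12 reference genes 1 was called in DKO on SD, Actb, which read 22361, 22525, 20679 and 22614 in WT SD and 32696, 26658, 30129 and 25936 in DKO SD (0.38, SE 0.097, adjusted p = 0.0347), and which gave 0.32 (adjusted p = 0.0736) without DKO SD 1. Over all genes 5.92% were called in that comparison, so 1 of 12 is not read as a result about reference genes. Of the 12, 11 lay above 0, with a median of 0.35, beside 0.31 for the 7 enzymes. B2m, a subunit of MHC class I, was called in CSB and DKO against WT and INDY (0.48, SE 0.071, adjusted p = 5.06e-05), where 0.796% of genes were called.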

How the data were processed

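RNA of 40 cerebellum libraries in 8 groups was analysed. Trizol and chloroform extraction and DNBseq sequencing are given per the labels. The authors deposited a signal for each gene, a normalised estimate of its reads, and the submitters' processing notes name Bowtie2, Salmon, DESeq2 and mm9, with no versions or roles. Raw counts and depth could not be recovered, so no counting interval was given.

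Symbols came from GENCODE M21 on GRCm38 by gene ID (54097 of 54331 without version), and positions and sequences are those of that annotation, not of the authors' alignments. Genes at 10 or more in at least 4 libraries (21367) entered limma 3.58.1 (trend, robust, R 4.3.3) on the scale log2(value + 1), 1 mean per group and no covariate. Tests are two-sided, with Benjamini-Hochberg adjustment over all genes of each of 16 comparisons and a call under 0.05. Errors of differences are standard errors. Copies were aligned with minimap2 2.31-r1302 (at least 90% identity over at least 50% of the copy). In sums, the rows were replaced by their sum. Marker levels are means of log2(value + 1). The enzymes, the lists and the tests were chosen with earlier results of these data known. All members were named, with pathway genes called or highest in mean and the 5 genes most alike. The 4-row sum, and the lists and other pathway genes without DKO SD 1 or WT KD 25, were added after the values were seen. The fit was tested on simulated data. Figures used matplotlib 3.10.9 in Python 3.11.15.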

Additional observations from a re-analysis of the deposited data

Results flagged for a closer look

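By Dixon's ratio, 8 of 112 sets of values (a gene in a group) held a library far from the rest. For independent sets of normal values about 1 in 20, or 5.6, would be flagged. The sets here share rows through the Gapdh sums, and a copy listed at 0 throughout a group cannot be flagged. The 5.6 is therefore only a rough guide. Aldoa (30070) and Eno1 (12726) of the library labelled WT KD 25 lay above the other 3 WT KD libraries. Aldoa of DKO SD 35 (29292) lay above the other DKO SD libraries, and Pkm of DKO SD 1 (21383) lay below them. Pfkm of INDY SD 10 (8023) lay above the other 5 INDY SD libraries. Gm12671 of INDY KD 46 was listed at 0, while the other 5 INDY KD libraries read 4398 or more. Gm7336 read 31.9 in WT SD 42 and 16.3 in INDY SD 10, where the other libraries of those groups are listed at 0.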

How the results depend on the processing

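No paired analysis was possible because the library numbers are unique to each library. DKO minus WT on SD held 3 called rows. No filter on low values, equal totals, only the groups compared, and the forebrain or the liver level as a covariate each left 0. Leaving out 1 library gave 0 to 5, with 12 to 2669 of all genes called. INDY and DKO minus WT and CSB held 0 called rows and gave 2 with a pseudocount of 5. With 1 library left out it gave 0 to 3, with 2 to 6 of all genes called. CSB and DKO minus WT and INDY gave 0 to 1, with 120 to 1379 of all genes called when 1 library was left out. In the other 13 comparisons no row was called under any alternative run. For the 3-row sum, INDY and DKO minus WT and CSB (0.40) was no longer called with equal totals (0.34), the liver level (0.37), without the libraries of high forebrain level (0.29), for Gapdh alone (0.28), with every aligned copy (0.091) or with Gm13394 (0.10), and leaving out 1 library gave 0.37 to 0.43, with the call lost without WT KD 7 or the library labelled WT KD 25. DKO minus WT on SD (0.43) was called for Gapdh alone (0.46), with every aligned copy (0.40) and with Gm13394 (0.43). Over 49 alternatives the call ended 30 times for Gapdh alone, 11 times for the sum with Gm13394, 10 times for Aldoa and 9 times for Eno1. The other limits are the unknown depth, the scaling, the groups of 4 libraries and the copies whose reads cannot be placed.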
